A study of Mus musculus with 8 samples.

Results

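The cytochrome P450 genes of mouse small intestinal organoids were followed through 4 culture conditions. Members were all genes on the array with a numbered Cyp symbol, except the Cyp4a subfamily and Cyp51, and each was read by its brightest probe. Of 74 such genes with a matched probe, 54 had a sample-channel signal well above background on each array of 1 or more groups and entered the test, among 19262 genes tested in all. The organoids, which are self-organising cultures of gut epithelium grown in Matrigel, came from 2 independently established lines, and both lines were wild type. For 6 days they received CHIR99021 at 3 µM, valproic acid (VPA) at 1 mM, both compounds at those doses, or control medium, and each group held 1 array of each line. CHIR99021 inhibits the kinase GSK3 and so raises beta-catenin signalling, and VPA inhibits histone deacetylases and is itself a branched short-chain fatty acid. All groups share the wild-type genotype and the culture medium, and Cy3-labelled control RNA of the same line was the internal comparison on every array.

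P450 enzymes are haem proteins that insert an oxygen atom into a substrate with electrons from a reductase. In the gut epithelium the families with low numbers (Cyp1, Cyp2 and Cyp3) are known for the first-pass oxidation of drugs, dietary compounds and steroids, while Cyp4 and several Cyp2 enzymes hydroxylate or epoxidise fatty acids and eicosanoids, and families with higher numbers act on sterols, bile acids, retinoids and vitamin D. Many of the drug-metabolising genes respond to ligand-activated receptors such as Nr1i2 (PXR), Nr1i3 (CAR) and Ahr. They lie in clusters of close relatives, so probes of near-identical genes may bind each other's RNA and their signals cannot be fully told apart; the probe sequences were not used here.

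Values are log2 Cy5/Cy3, the sample over control RNA of its line, and each difference subtracts the control ratio from the treated one, so a negative value means less RNA in treated organoids. Each list of values gives line 1 before line 2. Well-above-background Cy5 signal was found for 60.6% to 64.6% of spots, and 0 were saturated. With 2 lines a group, the p-values rest on the spread within the 4 groups together, drawn toward that of all genes. Control arrays hold control RNA of the same line in both channels, so their ratios lie near 0. Their SD over genes was 0.23 and 0.203, against 0.38 to 0.677 on treated arrays, so they add little spread to the test. They still enter the shared spread of every contrast, also those without control, which can make the p-values too small. A treated array beyond both control arrays is set against that narrow spread. Line and slide coincide, so they cannot be told apart. Tests are limma's moderated test with Benjamini-Hochberg adjustment over the 19262 genes, and a call is an adjusted p under 0.05.

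With both compounds 23 of the 54 P450 genes passed the test against control, 4 higher and 19 lower, where 15.5% of all genes tested passed (8.42% higher and 7.09% lower). The median difference of the 54 was -1.13, beside 0.006 over all genes. The genes that fell included members of the drug-metabolising Cyp2b, Cyp2c and Cyp2d groups, Cyp3a13, and fatty acid hydroxylases of the Cyp4f group, and the 4 that rose were Cyp2c55, Cyp2e1, Cyp27a1 and Cyp20a1. CHIR99021 alone gave 6 calls, all lower, where 1.12% of all genes passed (0.114% higher and 1.01% lower), and the median of the 54 was -0.60 beside 0.008 over all genes. VPA alone gave 8 calls, 3 higher and 5 lower, where 10.8% of all genes passed (6.57% higher and 4.27% lower), and the median was -0.06 beside 0 over all genes. Cyp2a12 and Cyp2e1 (called with VPA) and Cyp2e1 and Cyp2c39 (called with both) passed the filter only through groups in which they were high. Those calls are partly given by the filter. The 3 comparisons share their control arrays.

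These counts depend on single arrays. Without the control array of line 1 or of line 2, 6 or 5 of the combination calls were left, 0 or 0 for CHIR99021 (15 or 17 at an unadjusted p under 0.05) and 0 or 0 for VPA (9 or 10 unadjusted). The CHIR99021 calls also came to 1 without the CHIR99021 array of line 1 and 0 without that of line 2 (19 unadjusted), and the VPA calls came to 0 without the VPA array of line 2 (15 unadjusted). When the background model was fitted on all spots, including those marked as outliers, CHIR99021 gave 0 calls with limma (18 unadjusted), VPA 5 and the combination 19. With the line as a replicate block the counts were 14 for CHIR99021, 12 for VPA and 39 for the combination. Agilent's own log ratio gave 2, 7 and 22 calls. Of the 53 calls made over the 6 contrasts, 20 ended with Agilent's log ratio, 23 with the background model on all spots, 12 with median centring and 45 with the Cy5 channel alone.

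Markers of absorptive enterocytes, the cells that carry most intestinal P450, moved with these groups. The summed Cy5 level of 11 enterocyte markers lay between 109000 and 111000 with CHIR99021, between 383000 and 396000 with VPA and between 66300 and 103000 with both, against 274000 to 291000 in control organoids. Of the 11, 3 passed the test as lower with CHIR99021 (median -1.85), 2 with VPA (median 0.12) and 6 with both (median -1.68), and 0 passed it as higher. With VPA 6 of the 11 had differences above 0, among them the fatty acid binding proteins Fabp2 (2.27, adjusted p = 0.0524) and Fabp1 (2.16, adjusted p = 0.0711). The other 5 were below 0, among them the 2 that passed, Apoa1 (-1.865, adjusted p = 0.0158) and Treh (-0.95, adjusted p = 0.00991). In bulk RNA, fewer cells of a type and less RNA per cell cannot be told apart, and the part of enterocyte content in the P450 values was not tested. No marker of the list was at background in every group.

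**Figure D1:**
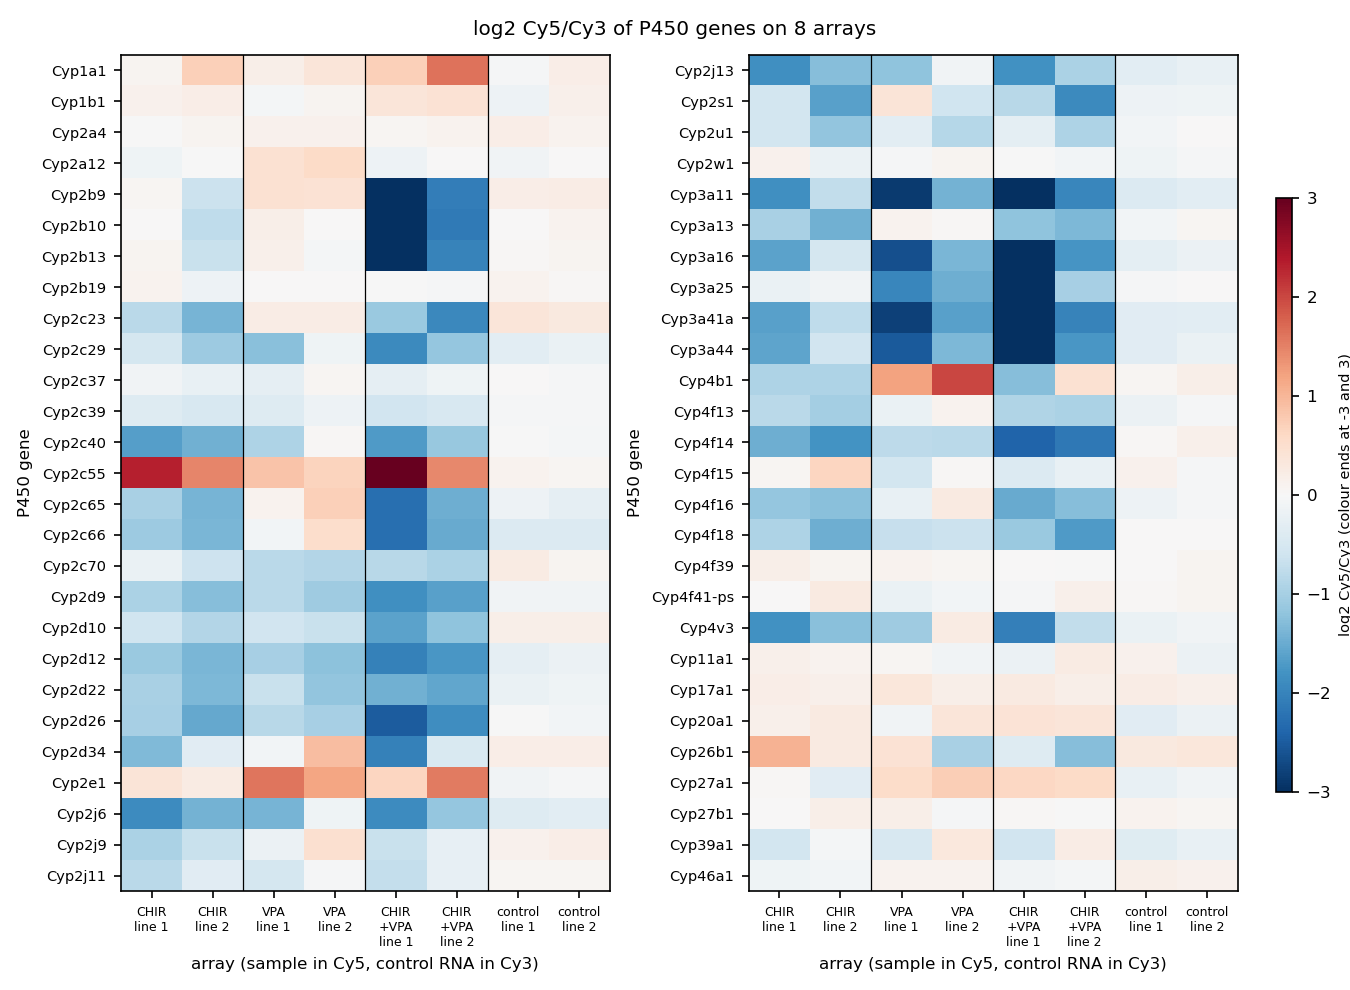
Colour plot of log2 Cy5/Cy3 for the 54 P450 genes (rows, ordered by family) on the 8 arrays (columns, by group and line; red is higher in the sample, blue lower, and the colour stops at -3 and 3). The darkest blue lies in the combination columns of Cyp2b9, Cyp2b10, Cyp2b13 and the Cyp3a cluster, and Cyp2c55 is red on all 6 treated arrays.

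The sequences printed here are the promoter windows of 4 Cyp2b genes on chromosome 7 and 2 Cyp2c genes on chromosome 19. They belong to neighbours that differed strongly, and whether the windows bear on those differences was not tested. Each is 300 bases, from 250 before to 50 after the annotated start, from RefSeq on build GRCm38.p6 and the plus strand, written 5′ to 3′. Cyp2b10 (chr7:25897408-25897707), Cyp2b13 (chr7:26061245-26061544) and Cyp2b9 (chr7:26173159-26173458) fell together with the combination, and Cyp2b19 (chr7:26756892-26757191), a relative from the same cluster, did not pass the test. Cyp2c55 (chr19:39006769-39007068) rose with the combination while the next gene along, Cyp2c65 (chr19:39060756-39061055), fell. Capitals mark matches, on either strand, to 6 short motifs: TATAAA, known as the TATA box; CTTTGA, the TCF/LEF core read by beta-catenin's partners; AGGTCA, a half-site of nuclear receptors; GCGTG, the Ahr core; AGATAA, which GATA factors read; and GTTAAT, an HNF1 half-site.
Cyp2b10: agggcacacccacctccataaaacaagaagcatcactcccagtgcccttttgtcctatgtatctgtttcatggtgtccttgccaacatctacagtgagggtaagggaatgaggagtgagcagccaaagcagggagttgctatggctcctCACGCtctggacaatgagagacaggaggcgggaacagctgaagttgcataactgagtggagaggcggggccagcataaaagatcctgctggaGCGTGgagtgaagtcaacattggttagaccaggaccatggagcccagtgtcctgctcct
Cyp2b13: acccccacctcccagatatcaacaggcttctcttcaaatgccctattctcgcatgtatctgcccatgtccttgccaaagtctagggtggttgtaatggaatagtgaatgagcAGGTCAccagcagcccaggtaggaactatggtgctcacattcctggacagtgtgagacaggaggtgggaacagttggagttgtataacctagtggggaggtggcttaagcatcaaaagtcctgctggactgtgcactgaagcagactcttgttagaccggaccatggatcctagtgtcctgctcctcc
Cyp2b9: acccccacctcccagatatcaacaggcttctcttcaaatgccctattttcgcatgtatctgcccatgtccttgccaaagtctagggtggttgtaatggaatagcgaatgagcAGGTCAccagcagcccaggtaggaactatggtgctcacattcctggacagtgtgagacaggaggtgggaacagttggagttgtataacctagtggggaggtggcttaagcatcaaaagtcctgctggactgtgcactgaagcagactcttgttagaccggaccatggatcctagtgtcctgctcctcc
Cyp2b19: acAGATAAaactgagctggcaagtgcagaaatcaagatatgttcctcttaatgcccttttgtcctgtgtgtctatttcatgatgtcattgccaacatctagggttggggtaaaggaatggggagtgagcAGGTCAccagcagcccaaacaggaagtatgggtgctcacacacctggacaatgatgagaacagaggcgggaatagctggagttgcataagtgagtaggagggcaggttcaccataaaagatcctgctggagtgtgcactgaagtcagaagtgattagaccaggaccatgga
Cyp2c55: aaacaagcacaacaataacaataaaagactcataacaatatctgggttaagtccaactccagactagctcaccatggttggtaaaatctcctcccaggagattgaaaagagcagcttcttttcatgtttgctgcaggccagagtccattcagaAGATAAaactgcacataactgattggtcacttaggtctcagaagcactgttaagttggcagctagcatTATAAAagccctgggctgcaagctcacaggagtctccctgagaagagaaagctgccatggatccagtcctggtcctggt
Cyp2c65: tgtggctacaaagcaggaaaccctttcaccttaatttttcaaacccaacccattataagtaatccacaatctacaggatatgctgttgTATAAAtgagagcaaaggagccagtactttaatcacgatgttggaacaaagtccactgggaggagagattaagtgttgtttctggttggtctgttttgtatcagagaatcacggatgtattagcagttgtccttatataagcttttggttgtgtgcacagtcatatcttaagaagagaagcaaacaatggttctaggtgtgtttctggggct

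In these windows Cyp2b10 held GCGTG on either strand (shown as GCGTG and as its reverse complement CACGC), Cyp2b13 and Cyp2b9 held AGGTCA, Cyp2b19 held AGGTCA and AGATAA, Cyp2c55 held AGATAA and TATAAA, and Cyp2c65 held TATAAA. The Cyp2b13 and Cyp2b9 windows were 99.3% identical, differing by C48T and T104C (Cyp2b13's base first, positions counted from 1 at the 5′ end of the window). Cyp2b10 was 71.7% identical to either of them and 69.0% to Cyp2b19, and Cyp2c55 was 53.2% identical to Cyp2c65. Across the promoters of members, 53 windows of 46 of the 54 genes, TATAAA was in 35.8%, CTTTGA in 22.6%, AGGTCA in 22.6%, GCGTG in 24.5%, AGATAA in 17.0% and GTTAAT in 7.5%. Over all 32851 promoters of the table the shares were 13.6%, 16%, 16.3%, 32.4%, 11.2% and 7.1% in the same order of motifs. No 2 of the matches marked in the 6 printed windows overlap, and a match describes these letters only.

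Cyp2b10, Cyp2b13 and Cyp2b9 fell steeply when both compounds were given, and none of the 3 passed the test with either compound alone. Cyp2b10 is the classic phenobarbital-inducible P450 and a target of CAR, and Cyp2b9 and Cyp2b13 are known from mouse liver, where they are higher in females. The Cyp2b10 ratio was 0.02 and -0.75 on the CHIR99021 arrays, 0.17 and 0.01 on the VPA arrays, -3.32 and -2.12 on the combination arrays, and 0.00 and 0.11 on the control arrays. Both combination arrays lay far below every other array. Cyp2b13 gave 0.08 and -0.66 on the CHIR99021 arrays, 0.16 and -0.05 on the VPA arrays, -3.20 and -2.0 on the combination arrays, and 0.05 and 0.07 on the control arrays. Cyp2b9 stood at 0.07 and -0.64 on the CHIR99021 arrays, 0.46 and 0.43 on the VPA arrays, -3.54 and -2.08 on the combination arrays, and 0.19 and 0.21 on the control arrays, again with the combination apart from the other 3 groups and lower in line 1 than in line 2.

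The differences with both compounds against control were -2.78 ± 0.40 for Cyp2b10 (SE, adjusted p = 0.00676 in limma), -2.66 ± 0.40 for Cyp2b13 (adjusted p = 0.00758) and -3.01 ± 0.45 for Cyp2b9 (adjusted p = 0.00758). CHIR99021 alone gave -0.42 ± 0.40, -0.35 ± 0.40 and -0.49 ± 0.45 for the same genes in that order, and VPA alone gave 0.03 ± 0.40, -0.01 ± 0.40 and 0.25 ± 0.45. The combination was also lower than each single compound: Cyp2b10 differed by -2.35 ± 0.40 from CHIR99021 alone (adjusted p = 0.0176) and by -2.81 ± 0.40 from VPA alone (adjusted p = 0.0355), and Cyp2b13 and Cyp2b9 passed both tests too. The calls against control ended without the control array of line 1 (adjusted p = 0.0629, 0.0696 and 0.0696 for Cyp2b10, Cyp2b13 and Cyp2b9) or of line 2 (0.0653, 0.0696 and 0.0694), at differences of -2.64 to -3.02. Against CHIR99021 alone, Cyp2b10 lost its call without either control array (adjusted p = 0.0547) or the CHIR99021 array of line 1 (-1.97, adjusted p = 0.102) or line 2 (-2.74, adjusted p = 0.060). Against VPA alone it did so without any 1 array except the combination array of line 2 (adjusted p 0.0543 to 0.142). Cyp2b13 and Cyp2b9 lost theirs against CHIR99021 without either control array (0.0562 for Cyp2b13 and 0.0605 for Cyp2b9) or either CHIR99021 array (0.0626 to 0.119). Against VPA they did so without any 1 control, CHIR99021 or VPA array (0.0655 to 0.152), and Cyp2b13 also without the combination array of line 1 (0.060). With Agilent's log ratio or the background model fitted on all spots, the calls of all 3 genes against VPA ended too (0.0648 to 0.105). Fitted on only the groups compared, the calls of all 3 ended against CHIR99021 (adjusted p 0.0947 to 0.104) and against VPA (0.307 to 0.323).

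The fall was not shared by every gene of the cluster or by every probe. Cyp2b19, an arachidonic acid epoxygenase of the skin, differed by -0.09 ± 0.11 with both compounds, and Cyp2a4, a steroid hydroxylase that lies next to Cyp2b9 in the RefSeq order, by -0.07 ± 0.09. A second Cyp2b9 probe, above background on 8 arrays, read -1.82 for the combination. A second Cyp2b13 probe, also above background on 8 arrays, read -0.15, so the 2 probes of Cyp2b13 disagree, and their mean gave -1.405 against control, -1.188 against CHIR99021 and -1.336 against VPA, each still past the threshold (adjusted p = 0.00544, 0.0145 and 0.0361).

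**Figure D2:**
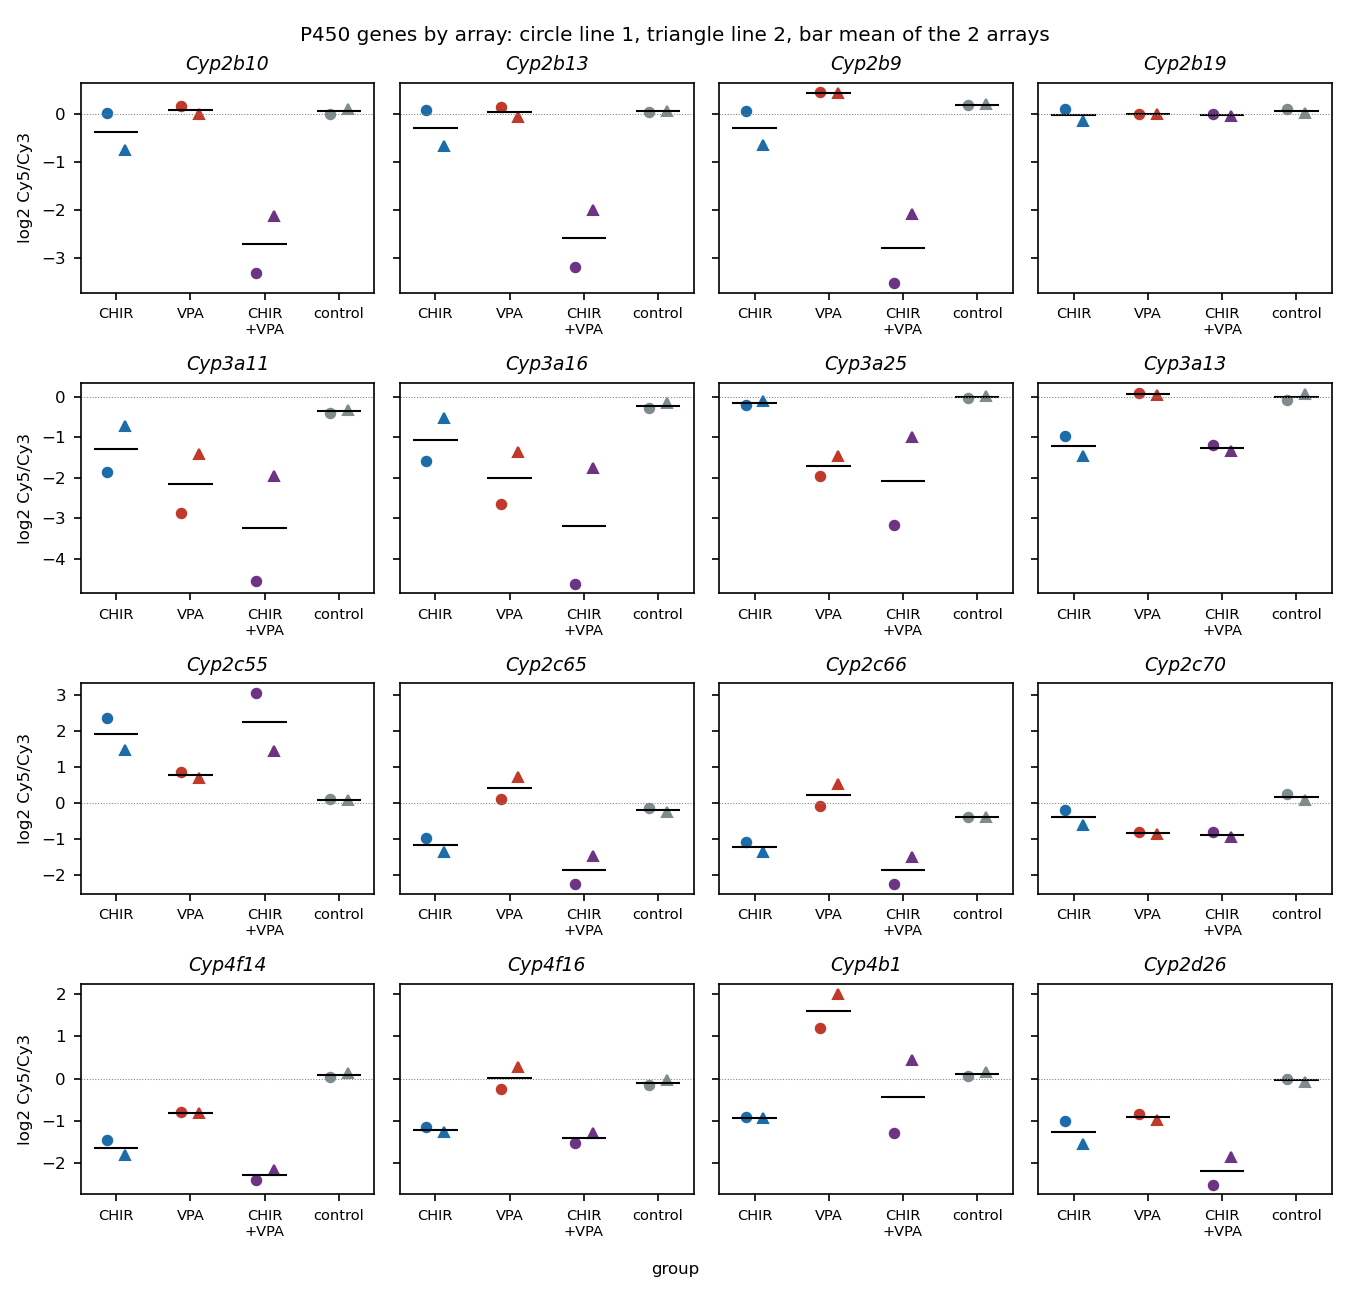
Log2 Cy5/Cy3 of 16 P450 genes on each array (y axis) by group (x axis; circles are line 1, triangles line 2, bars the mean of the 2 arrays; the genes of a row share 1 y axis). Cyp2b10, Cyp2b13 and Cyp2b9 lie between -3.54 and -2.0 in the combination column and between -0.75 and 0.46 in the others, while Cyp2c55 lies above its control arrays in all treated groups.

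The Cyp3a cluster on chromosome 5, which holds the main drug-oxidising P450s of mouse liver and gut, held the largest mean decrease with both compounds. Its 5 members tested there did not pass the test, and line 1 was far lower than line 2 on the combination arrays. Cyp3a11, the PXR-inducible enzyme most like human CYP3A4, gave -1.85 and -0.73 on the CHIR99021 arrays, -2.88 and -1.42 on the VPA arrays, -4.53 and -1.96 on the combination arrays, and -0.40 and -0.33 on the control arrays. Cyp3a41a, known as a female-biased liver form, gave -1.63 and -0.76 on the CHIR99021 arrays, -2.80 and -1.64 on the VPA arrays, -5.12 and -2.01 on the combination arrays, and -0.35 and -0.32 on the control arrays. The treated arrays of both genes were below all control arrays, and line 1 was lower than line 2 in every treated group. The ratio of Cyp3a16 was -1.60 and -0.54 on the CHIR99021 arrays, -2.64 and -1.37 on the VPA arrays, -4.61 and -1.76 on the combination arrays, and -0.28 and -0.17 on the control arrays. Cyp3a44, another liver form, read -1.58 and -0.57 on the CHIR99021 arrays, -2.52 and -1.35 on the VPA arrays, -4.03 and -1.75 on the combination arrays, and -0.33 and -0.19 on the control arrays. Cyp3a25 differed from these in that its CHIR99021 arrays were close to control, at -0.20 and -0.10 on the CHIR99021 arrays, -1.96 and -1.47 on the VPA arrays, -3.17 and -0.99 on the combination arrays, and -0.03 and 0.00 on the control arrays.

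Against control, the combination moved Cyp3a41a by -3.23 ± 0.94, Cyp3a16 by -2.96 ± 0.91, Cyp3a11 by -2.88 ± 0.87, Cyp3a44 by -2.63 ± 0.76 and Cyp3a25 by -2.07 ± 0.62, with adjusted p from 0.0631 to 0.0744. With the line as a block, Cyp3a11, Cyp3a16 and Cyp3a41a passed (adjusted p = 0.00874, 0.0113 and 0.0131). The size rested on the line: without the combination array of line 1 these 3 gave -1.602, -1.531 and -1.676 (adjusted p = 0.213, 0.192 and 0.118), and without that of line 2 they gave -4.17, -4.38 and -4.79 and passed (adjusted p = 0.015, 0.0101 and 0.00588). VPA alone gave -1.89 ± 0.94 for Cyp3a41a, -1.79 ± 0.87 for Cyp3a11, -1.78 ± 0.91 for Cyp3a16, -1.70 ± 0.62 for Cyp3a25 and -1.67 ± 0.76 for Cyp3a44, none past the threshold, and without the VPA array of line 1 Cyp3a11, Cyp3a16 and Cyp3a44 gave -1.06, -1.14 and -1.085. With the block the VPA difference of Cyp3a44 passed (adjusted p = 0.0404), and without a combination array of either line those of Cyp3a25 (adjusted p = 0.00467) and Cyp3a41a (adjusted p = 0.0416) did. A second Cyp3a25 probe, above background on 8 arrays, read -1.79 with both compounds and -1.41 with VPA.

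Cyp3a13, an extrahepatic form that the RefSeq order does not place among the other Cyp3a genes, was low in the 2 groups that received CHIR99021. Its ratio was -0.97 and -1.45 on the CHIR99021 arrays, 0.10 and 0.04 on the VPA arrays, -1.20 and -1.35 on the combination arrays, and -0.09 and 0.06 on the control arrays. The CHIR99021 and combination arrays lay below the VPA and control arrays without overlap. Cyp3a13 fell by 1.20 with CHIR99021 (SE 0.17, adjusted p = 0.0326) and fell by 1.26 with both compounds (adjusted p = 0.00499), and VPA alone gave 0.09 ± 0.17. The combination minus VPA alone was -1.34 ± 0.17 (adjusted p = 0.0256). The CHIR99021 call ended without any 1 of the 4 arrays behind it (differences -0.96 to -1.44, adjusted p 0.0528 to 0.357), and the combination call against control ended without the control array of line 2 (-1.18, adjusted p = 0.0561). That against VPA ended without any 1 control, VPA or combination array (0.0631 to 0.109).

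Of the 9 Cyp2c genes tested, 1 rose and 6 fell with both compounds, where 8.42% of all genes rose and 7.09% fell. Of the 6, Cyp2c39 passed the filter only through control, where it was high. The 9 genes lie in a single RefSeq cluster on chromosome 19 apart from Cyp2c23. Cyp2c55, a gut and liver enzyme that hydroxylates arachidonic acid and is inducible through PXR and CAR, was the 1 that rose. It read 2.34 and 1.47 on the CHIR99021 arrays, 0.85 and 0.67 on the VPA arrays, 3.04 and 1.44 on the combination arrays, and 0.11 and 0.06 on the control arrays. All 6 treated arrays were above both control arrays. The difference was 2.16 ± 0.51 with both compounds (adjusted p = 0.0336), 1.82 ± 0.51 with CHIR99021 (adjusted p = 0.194) and 0.68 ± 0.51 with VPA (adjusted p = 0.464). The combination call ended without either control array (adjusted p = 0.171 and 0.172) and without the combination array of line 1 (1.36, adjusted p = 0.0605), whereas leaving out a combination array of either line brought CHIR99021 past the threshold (adjusted p = 0.0438).

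Its neighbours Cyp2c65 and Cyp2c66, P450s of the stomach and intestine, fell with both compounds. Cyp2c65 had ratios of -0.97 and -1.39 on the CHIR99021 arrays, 0.10 and 0.71 on the VPA arrays, -2.27 and -1.47 on the combination arrays, and -0.16 and -0.26 on the control arrays. Cyp2c66 followed with -1.09 and -1.37 on the CHIR99021 arrays, -0.08 and 0.53 on the VPA arrays, -2.26 and -1.52 on the combination arrays, and -0.41 and -0.40 on the control arrays. In both genes the combination arrays were lowest, the CHIR99021 arrays came next and the VPA arrays were above control. The combination difference was -1.66 ± 0.31 for Cyp2c65 (adjusted p = 0.0152) and -1.49 ± 0.28 for Cyp2c66 (adjusted p = 0.0169), and against VPA alone it was -2.28 ± 0.31 and -2.11 ± 0.28 (adjusted p = 0.0313 and 0.0307). VPA alone gave 0.61 ± 0.31 and 0.62 ± 0.28 against control, neither past the threshold. The calls against control ended without either control array (adjusted p 0.0972 to 0.115), and that of Cyp2c66 also without the combination array of line 1 (-1.12, adjusted p = 0.0524). Those against VPA ended without any 1 control or CHIR99021 array, the combination array of line 1 or the VPA array of line 2 (0.0647 to 0.131).

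Cyp2c70, which makes the muricholic bile acids of mice, fell with VPA and with both compounds. Its ratios were -0.20 and -0.62 on the CHIR99021 arrays, -0.81 and -0.88 on the VPA arrays, -0.83 and -0.95 on the combination arrays, and 0.25 and 0.08 on the control arrays. The VPA and combination arrays were lower than all other arrays. The difference was -1.01 ± 0.15 with VPA (adjusted p = 0.0123) and -1.05 ± 0.15 with both (adjusted p = 0.00689), against -0.57 ± 0.15 with CHIR99021, which did not pass. The VPA call ended without either control array (adjusted p = 0.123 and 0.0887) or the VPA array of line 2 (0.0514), and the combination call without either control array (0.0727 and 0.0516).

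Cyp2c23, an arachidonic acid epoxygenase, and Cyp2c40, which hydroxylates arachidonic acid in the gut, were low with CHIR99021 and with both compounds. Cyp2c23 gave -0.82 and -1.41 on the CHIR99021 arrays, 0.21 and 0.23 on the VPA arrays, -1.10 and -1.93 on the combination arrays, and 0.36 and 0.29 on the control arrays. Cyp2c40 gave -1.66 and -1.43 on the CHIR99021 arrays, -0.93 and 0.03 on the VPA arrays, -1.69 and -1.14 on the combination arrays, and -0.02 and -0.05 on the control arrays. The CHIR99021 and combination arrays of each gene were below its VPA and control arrays. Cyp2c23 fell by 1.84 with both (adjusted p = 0.0089) and Cyp2c40 fell by 1.38 (adjusted p = 0.032), and with CHIR99021 alone the values were -1.44 ± 0.29 and -1.51 ± 0.32 (adjusted p = 0.0869 and 0.101). The Cyp2c40 combination call ended with Agilent's log ratio (adjusted p = 0.057), median centring (0.0605) and the mean of its probes (-1.224, adjusted p = 0.0588). Its second probe, above background on 8 arrays, read -1.07. With the Cy5 channel alone the combination calls of Cyp2c23 and Cyp2c40 ended (0.0734 and 0.0712). With the line as a block CHIR99021 passed for both genes (0.0253 and 0.0252). Leaving out a combination array of either line brought Cyp2c23 past the threshold for CHIR99021 (adjusted p = 0.0318), and leaving out a VPA array of either line did so for Cyp2c40 (0.0342). Without either control array the combination calls ended (0.0801 and 0.0728 for Cyp2c23, 0.173 and 0.161 for Cyp2c40). That of Cyp2c40 also ended without a CHIR99021 array of either line (0.0598) or the combination array of line 1 (-1.11, adjusted p = 0.132).

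Cyp2c39, a retinoic acid hydroxylase, was well above background on both arrays of the control group alone. It read -0.39 and -0.49 on the CHIR99021 arrays, -0.39 and -0.15 on the VPA arrays, -0.56 and -0.48 on the combination arrays, and -0.03 and -0.04 on the control arrays, with both combination arrays under both control arrays. It fell by 0.49 with both compounds (adjusted p = 0.0287), and 0 of 2 combination arrays were well above background, so the size of that fall is not known. Folds for such genes were read on another scale, the Cy5 channel alone after normalisation between arrays. Dim arrays were set no lower than the lowest well-above-background signal there (the floor). Such a fold is a difference of means without an error, not a firm lower limit. That scale has no Cy3 control in it, is open to dye bias without dye swaps, and can give a larger fold than the ratio. On it Cyp2c39 averaged 6.13 log2 units with both compounds and 6.98 in control, 1.79-fold lower with the floor. Agilent's log ratio gave -2.5, and the background model fitted on all spots ended the call (adjusted p = 0.114). So did limma's test of the Cy5 channel alone (-0.955, adjusted p = 0.0635). The call ended without either control array (adjusted p = 0.172 and 0.157), either CHIR99021 array (0.0547) or either combination array (0.115 and 0.0546). Of the Cyp2c genes that passed no test, Cyp2c29 differed by -1.29 ± 0.41 and Cyp2c37 by -0.19 ± 0.13 with both compounds.

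The Cyp2d genes, which form a cluster on chromosome 15 and are the mouse relatives of the human drug-oxidising CYP2D6, fell together, apart from Cyp2d34 with VPA. With both compounds 5 of 6 passed the test, all lower (7.09% of all genes did), with a median of -1.61 for the 6. With CHIR99021 2 passed (1.01% of all genes) and with VPA 3 (4.27%), again all lower (medians -1.0 and -0.81). Probes of these close relatives may bind each other's RNA, so their calls may not be separate observations. Cyp2d9, a steroid hydroxylase of male liver, was at -0.94 and -1.27 on the CHIR99021 arrays, -0.80 and -1.06 on the VPA arrays, -1.85 and -1.62 on the combination arrays, and -0.12 and -0.11 on the control arrays. Cyp2d12 was at -1.11 and -1.36 on the CHIR99021 arrays, -0.99 and -1.23 on the VPA arrays, -2.03 and -1.74 on the combination arrays, and -0.28 and -0.18 on the control arrays. Cyp2d10 gave -0.59 and -0.89 on the CHIR99021 arrays, -0.58 and -0.66 on the VPA arrays, -1.61 and -1.21 on the combination arrays, and 0.18 and 0.18 on the control arrays. In each of the 3, every treated array was below both control arrays, and the combination arrays were the lowest.

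Cyp2d26 read -0.99 and -1.53 on the CHIR99021 arrays, -0.83 and -0.99 on the VPA arrays, -2.50 and -1.86 on the combination arrays, and 0.00 and -0.08 on the control arrays. Cyp2d22, often regarded as the closest mouse counterpart of CYP2D6, read -0.98 and -1.35 on the CHIR99021 arrays, -0.67 and -1.18 on the VPA arrays, -1.44 and -1.56 on the combination arrays, and -0.21 and -0.13 on the control arrays. Both had all treated arrays below control. Cyp2d34, the member that passed no test, overlapped control with VPA and had CHIR99021 and combination values that were far lower in line 1 than in line 2, at -1.32 and -0.35 on the CHIR99021 arrays, -0.08 and 0.93 on the VPA arrays, -2.02 and -0.47 on the combination arrays, and 0.20 and 0.20 on the control arrays.

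With both compounds Cyp2d26 fell by 2.14 (SE 0.25, adjusted p = 0.0034), Cyp2d12 fell by 1.65 (SE 0.15, adjusted p = 0.00165), Cyp2d9 fell by 1.62 (SE 0.15, adjusted p = 0.00179), Cyp2d10 fell by 1.59 (SE 0.16, adjusted p = 0.00211) and Cyp2d22 fell by 1.33 (SE 0.20, adjusted p = 0.00728). Those of Cyp2d9, Cyp2d10, Cyp2d12 and Cyp2d26 were called also without any 1 array, and that of Cyp2d22 ended without either control array (0.0655 and 0.0714). With CHIR99021 alone Cyp2d12 fell by 1.01 (adjusted p = 0.0419) and Cyp2d9 fell by 0.99 (adjusted p = 0.0451). Both calls ended without any 1 of the CHIR99021 and control arrays (adjusted p 0.109 to 0.399). With VPA alone Cyp2d12 fell by 0.88 (adjusted p = 0.0174), Cyp2d9 fell by 0.82 (adjusted p = 0.0236) and Cyp2d10 fell by 0.81 (adjusted p = 0.0267), calls that ended without either control array or the VPA array of line 2 (adjusted p 0.0666 to 0.174), and for Cyp2d10 also without that of line 1 (0.0723). The combination was lower than CHIR99021 alone for Cyp2d10 (-0.67 ± 0.16, adjusted p = 0.0457) and Cyp2d12 (-0.65 ± 0.15, adjusted p = 0.0433). Each of these ended without the control, CHIR99021 or line 1 combination arrays (adjusted p 0.101 to 0.213), and that of Cyp2d10 also without a VPA array of either line (0.060). The second Cyp2d10 probe, above background on 8 arrays, read 0.06 for this difference, and the mean of both probes gave -0.305 (adjusted p = 0.247), which ended the call. Second probes read -1.55 for Cyp2d9, -0.57 for Cyp2d10 and -0.02 for Cyp2d22 with both compounds against control, the last above background on only 2 arrays, and the mean of the Cyp2d22 probes gave -0.673 (adjusted p = 0.044).

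The Cyp4f genes encode omega-hydroxylases of leukotrienes and fatty acids. Of 7 tested, 4 fell with both compounds (7.09% of all genes did), 3 with CHIR99021 (1.01%) and 1 with VPA (4.27%), and 0 rose, so the VPA count is a single gene. Cyp4f14, which inactivates leukotriene B4, had ratios of -1.45 and -1.80 on the CHIR99021 arrays, -0.79 and -0.82 on the VPA arrays, -2.40 and -2.15 on the combination arrays, and 0.04 and 0.14 on the control arrays. The 4 groups did not overlap, in the order combination, CHIR99021, VPA and control from low to high. Cyp4f14 fell by 2.36 with both compounds (SE 0.14, adjusted p = 0.000533), fell by 1.72 with CHIR99021 (adjusted p = 0.0135) and fell by 0.90 with VPA (adjusted p = 0.0148). Cyp4f14 was also lower with the combination than with either compound, at -1.47 ± 0.14 against VPA (adjusted p = 0.0175) and -0.65 ± 0.14 against CHIR99021 (adjusted p = 0.0383). Fitted on only the groups compared, neither of these calls was kept (adjusted p = 0.171 and 0.14). The combination call against control was kept without any 1 array. The CHIR99021 call ended without either control array (0.212 and 0.234) or the CHIR99021 array of line 2 (0.101), and the VPA call without any 1 of its 4 arrays (0.051 to 0.130). The call against VPA ended without either control array (0.099) or the VPA array of line 2 (0.0677), and that against CHIR99021 without any 1 array except the combination array of line 2 (0.0525 to 0.171).

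Cyp4f16 gave -1.15 and -1.26 on the CHIR99021 arrays, -0.23 and 0.28 on the VPA arrays, -1.52 and -1.29 on the combination arrays, and -0.15 and -0.03 on the control arrays. Cyp4f13 gave -0.81 and -1.01 on the CHIR99021 arrays, -0.19 and 0.10 on the VPA arrays, -0.90 and -0.94 on the combination arrays, and -0.18 and -0.03 on the control arrays. In both genes the CHIR99021 and combination arrays were below all VPA and control arrays. Cyp4f16 fell by 1.12 with CHIR99021 (adjusted p = 0.0479) and fell by 1.31 with both (adjusted p = 0.00553), and Cyp4f13 fell by 0.81 with CHIR99021 (adjusted p = 0.0497) and fell by 0.82 with both (adjusted p = 0.0094). VPA alone gave 0.12 ± 0.18 and 0.06 ± 0.13. The combination calls ended without either control array (0.053 to 0.0879), and the CHIR99021 calls without any 1 control, CHIR99021 or combination array (0.0516 to 0.443).

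Cyp4f18, the leukotriene hydroxylase of neutrophils, read -0.92 and -1.46 on the CHIR99021 arrays, -0.69 and -0.65 on the VPA arrays, -1.12 and -1.69 on the combination arrays, and 0.01 and 0.00 on the control arrays. All its treated arrays were below control. It fell by 1.41 with both compounds (adjusted p = 0.00975), a call that ended without either control array (0.0844 and 0.0791), and gave -1.19 ± 0.23 with CHIR99021 (adjusted p = 0.0781) and -0.67 ± 0.23 with VPA. Cyp4f15 was well above background on both arrays of CHIR99021 and of control and on neither combination array. There the Cy5 channel gave 6.15 log2 units against 6.70 in control, 1.44-fold lower with the floor. Its ratio differed by -0.36 ± 0.25 and did not pass the test (adjusted p = 0.399). Cyp4f39, known from the skin barrier, and the pseudogene Cyp4f41-ps stayed between -0.19 and 0.08 in the 3 comparisons.

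Among the other fatty acid P450s, Cyp4b1 had values of opposite sign with the 2 compounds. Cyp4b1, which also activates some plant toxins, gave -0.92 and -0.93 on the CHIR99021 arrays, 1.20 and 2.02 on the VPA arrays, -1.29 and 0.45 on the combination arrays, and 0.06 and 0.17 on the control arrays. The VPA arrays were above every other array and both CHIR99021 arrays below control, while the combination arrays lay on either side. VPA gave 1.49 ± 0.53 (adjusted p = 0.132, and 0.0437 with the line as a block) and CHIR99021 gave -1.04 ± 0.53 (adjusted p = 0.494). Without a combination array of either line the VPA difference passed (0.019).

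Cyp4v3, the mouse form of the retinal and epithelial hydroxylase CYP4V2, read -1.81 and -1.25 on the CHIR99021 arrays, -1.05 and 0.25 on the VPA arrays, -2.06 and -0.73 on the combination arrays, and -0.19 and -0.10 on the control arrays. Cyp2j13 read -1.84 and -1.29 on the CHIR99021 arrays, -1.21 and -0.11 on the VPA arrays, -1.80 and -0.95 on the combination arrays, and -0.32 and -0.21 on the control arrays, and it belongs to the Cyp2j epoxygenases. In both genes the CHIR99021 arrays were below control in each line, and VPA overlapped control. CHIR99021 gave -1.39 ± 0.54 for Cyp4v3 (adjusted p = 0.349) and -1.30 ± 0.42 for Cyp2j13 (adjusted p = 0.256, and 0.0364 with the block, against -0.426 for the mean of its probes). The 4 Cyp2j genes tested (Cyp2j6, Cyp2j9, Cyp2j11 and Cyp2j13) gave CHIR99021 differences of -0.63 to -1.30 and combination differences of -0.53 to -1.17, none past the threshold in limma's main test. Cyp2u1, a hydroxylase of long-chain fatty acids, gave -0.84 ± 0.30 with CHIR99021, and Cyp2s1, an epithelial form induced through Ahr, gave -0.94 ± 0.50 and, with both compounds, -1.23 ± 0.50. Cyp2w1, known from fetal gut, stayed within 0.11 of control.

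**Figure D3:**
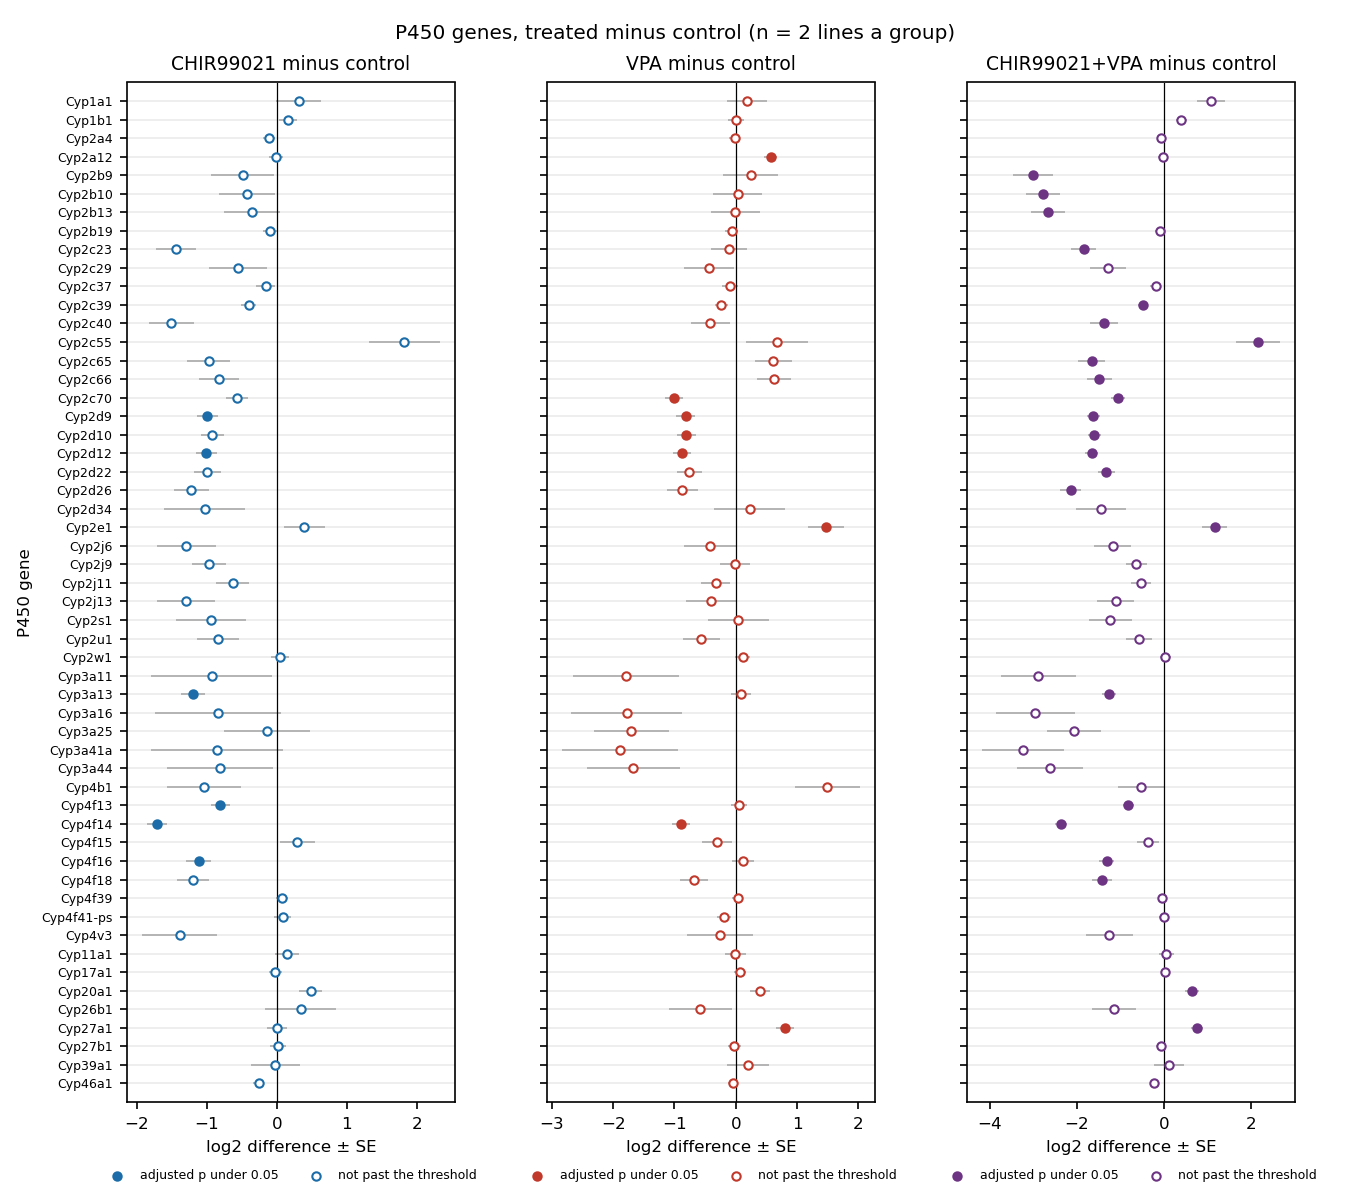
Log2 difference from control with its SE for the 54 P450 genes (y axis) with CHIR99021, VPA and both compounds (panels; x axis in log2 units with its own range in each panel, n = 2 lines a group; filled points have an adjusted p under 0.05). With both compounds 19 points are filled left of 0 and 4 right of it.

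Cyp2e1, the ethanol- and acetaminophen-oxidising P450, was higher with VPA and with both compounds. It read 0.40 and 0.25 on the CHIR99021 arrays, 1.62 and 1.19 on the VPA arrays, 0.64 and 1.56 on the combination arrays, and -0.11 and -0.03 on the control arrays. The VPA and combination arrays were above all CHIR99021 and control arrays. Cyp2e1 entered the test only through those 2 groups, since it was well above background on 2 of 2 arrays of each and on 1 of 2 arrays of CHIR99021 and of control, so its calls are partly given by the filter and the sizes are uncertain. Cyp2e1 rose by 1.47 ± 0.29 with VPA (adjusted p = 0.0272) and by 1.17 ± 0.29 with both (adjusted p = 0.0411), and CHIR99021 gave 0.39 ± 0.29. Both calls ended without either control array (0.162 to 0.210) or a CHIR99021 array of either line (0.057 for VPA and 0.0746 for both). The VPA call also ended without either VPA array (0.0989 and 0.0544), and the combination call without the combination array of line 2 (0.71, adjusted p = 0.0593). With Agilent's log ratio the values were 3.542 with VPA (adjusted p = 0.169) and 3.071 with both (adjusted p = 0.197), and neither passed.

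Cyp2a12, a steroid and bile acid hydroxylase of mouse liver, was well above background on both arrays of the VPA group alone. It gave -0.12 and 0.00 on the CHIR99021 arrays, 0.46 and 0.58 on the VPA arrays, -0.15 and 0.01 on the combination arrays, and -0.10 and 0.01 on the control arrays. It rose with VPA by 0.57 ± 0.10 (adjusted p = 0.0224), and no control array was well above background. In the Cy5 channel alone it averaged 6.61 log2 units with VPA and 6.01 in control, 1.44-fold higher with the floor. Agilent's log ratio gave 3.209 (adjusted p = 0.00372). With both compounds it differed from control by -0.02 ± 0.10. Against VPA alone the combination value was -0.59 ± 0.10 (adjusted p = 0.0625), and 1.48-fold lower in the Cy5 channel with the floor. The VPA call ended without either control array (0.177 and 0.126) or either VPA array (0.0501 and 0.0808).

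Cyp1a1, the Ahr-inducible P450 that oxidises polycyclic aromatics, was well above background on both combination arrays and on 0 of 2 control arrays. Its ratios were 0.08 and 0.71 on the CHIR99021 arrays, 0.17 and 0.37 on the VPA arrays, 0.72 and 1.63 on the combination arrays, and -0.03 and 0.20 on the control arrays. Both combination arrays were above the control arrays, and line 2 was higher than line 1. The fitted difference of the ratios, 1.09 ± 0.32, did not pass the test (adjusted p = 0.0671). In the Cy5 channel alone, Cyp1a1 averaged 7.48 log2 units with both compounds and 6.09 in control, 2.54-fold higher on that scale with the floor. The difference passed with the line as a block (adjusted p = 0.00749), with median centring (1.665, adjusted p = 0.0319) and without the combination array of line 1 (1.55, adjusted p = 0.0239), and it was 0.641 (adjusted p = 0.166) without that of line 2 and 3.971 (adjusted p = 0.0807) with Agilent's log ratio. Cyp1b1, a relative that also acts on oestrogens, was above background in the combination group alone. In the Cy5 channel with the floor it was 1.28-fold higher there than in control (adjusted p of the ratio 0.0771). Cyp1a1, Cyp1b1, Cyp11a1, Cyp2a12, Cyp2c39, Cyp2e1, Cyp2j11 and Cyp4f15 passed the filter through only some of the groups. Any difference from the groups in which they were dim is thus partly given by the filter. Such differences were not always large. Cyp11a1 differed from control by 0.06 with both compounds. Cyp2j11, above background on only 1 combination array, differed there by 0.10 from CHIR99021 alone.

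Cyp27a1, the mitochondrial sterol side-chain hydroxylase of bile acid synthesis, was higher in both groups that received VPA. It read 0.03 and -0.35 on the CHIR99021 arrays, 0.54 and 0.74 on the VPA arrays, 0.62 and 0.58 on the combination arrays, and -0.21 and -0.10 on the control arrays. The VPA and combination arrays were above all others without overlap. Cyp27a1 rose by 0.80 ± 0.14 with VPA (adjusted p = 0.0201) and by 0.76 ± 0.14 with both (adjusted p = 0.0162), was 0.00 ± 0.14 with CHIR99021, and was the only P450 gene called higher with the combination than with CHIR99021 alone (0.76 ± 0.14, adjusted p = 0.0241). With Agilent's log ratio these 3 calls stood at 1.332, 1.364 and 1.29. The VPA call ended without either control array (0.160 and 0.126) or the VPA array of line 2 (0.0756). The combination call against control ended without either control array (0.129 and 0.0923) or the combination array of line 1 (0.0659), and that against CHIR99021 without either control array (0.0671), either combination array (0.0937 and 0.0527) or the CHIR99021 array of line 2 (0.57, adjusted p = 0.116).

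Cyp20a1, an orphan P450 without a settled substrate, rose by 0.65 ± 0.16 with both compounds (adjusted p = 0.0403). Its ratios were 0.16 and 0.28 on the CHIR99021 arrays, -0.10 and 0.37 on the VPA arrays, 0.41 and 0.36 on the combination arrays, and -0.34 and -0.19 on the control arrays. Both control arrays were below 0 and both combination arrays above it. The call ended without any 1 control, CHIR99021 or combination array (0.0717 to 0.234), and the ratio against 0 was 0.385. Cyp26b1, which degrades retinoic acid, varied between lines, at 1.03 and 0.27 on the CHIR99021 arrays, 0.44 and -0.98 on the VPA arrays, -0.40 and -1.28 on the combination arrays, and 0.28 and 0.33 on the control arrays. Its combination arrays were below control in both lines, and its difference of -1.15 ± 0.51 did not pass (adjusted p = 0.192). With CHIR99021 Cyp26b1 gave 0.34 ± 0.51, which changed sign without the CHIR99021 array of line 1 (-0.044) and with the background model fitted on all spots (-0.106).

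Of the remaining sterol, steroid and vitamin D enzymes 0 passed any test. The cholesterol hydroxylase Cyp46a1 gave -0.26 ± 0.08, -0.05 ± 0.08 and -0.22 ± 0.08 with CHIR99021, VPA and both, and the oxysterol hydroxylase Cyp39a1 gave -0.02 ± 0.35, 0.20 ± 0.35 and 0.11 ± 0.35. Cyp27b1, which activates vitamin D, and Cyp11a1 and Cyp17a1, of steroid hormone synthesis, stayed between -0.07 and 0.14 in the 3 comparisons.

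Adding VPA to CHIR99021 gave 7 calls among the 54 genes, 1 higher (Cyp27a1) and 6 lower (Cyp2b9, Cyp2b10, Cyp2b13, Cyp2d10, Cyp2d12 and Cyp4f14), where 10% of all genes passed (6.21% higher and 3.81% lower), and the median of the 54 was -0.09 beside 0.009 over all genes. Adding CHIR99021 to VPA gave 9 calls, all lower (Cyp2b9, Cyp2b10, Cyp2b13, Cyp2c65, Cyp2c66, Cyp3a13, Cyp4f13, Cyp4f14 and Cyp4f16), where 1.12% of all genes passed (0.0883% higher and 1.03% lower), and the median was -0.67 beside 0.010. Fitted on only the groups compared, both counts came to 0 (13 and 21 unadjusted), so these calls rest on spread taken also from the other groups. The first count came to 0 without either control array (12 unadjusted each) or the CHIR99021 array of line 2 (12 unadjusted), to 1 without the CHIR99021 array of line 1, to 4 and 12 without the combination arrays of lines 1 and 2, and to 16 with the line as a block. The second came to 0 without either control array (23 unadjusted each) or the VPA array of line 2 (21 unadjusted), to 2 without a CHIR99021 array of either line, to 5 without the VPA array of line 1, to 3 without the combination array of line 1, to 1 with the background model fitted on all spots and to 3 with Agilent's log ratio.

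The interaction, the combination minus the sum of the single effects, is 0 for a gene whose effects add on the log2 scale. No P450 gene passed the interaction test in limma, at 0 of 54 with 7 at an unadjusted p under 0.05, nor did any gene of all tested (0%, 511 unadjusted), and the replicate block also gave 0 (8 unadjusted). The lowest values were those of Cyp2b9 (-2.77 ± 0.64, -3.88 in line 1 and -1.66 in line 2), Cyp2b10 (-2.39 ± 0.57, -3.51 and -1.27) and Cyp2b13 (-2.30 ± 0.56, -3.39 and -1.21). Next came Cyp2c65 (-1.30 ± 0.44) and Cyp2c66 (-1.28 ± 0.40), which were also below 0 in both lines. The adjusted p of each of these was 1, so none of these departures passed the test against the spread between lines.

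**Figure D4:**
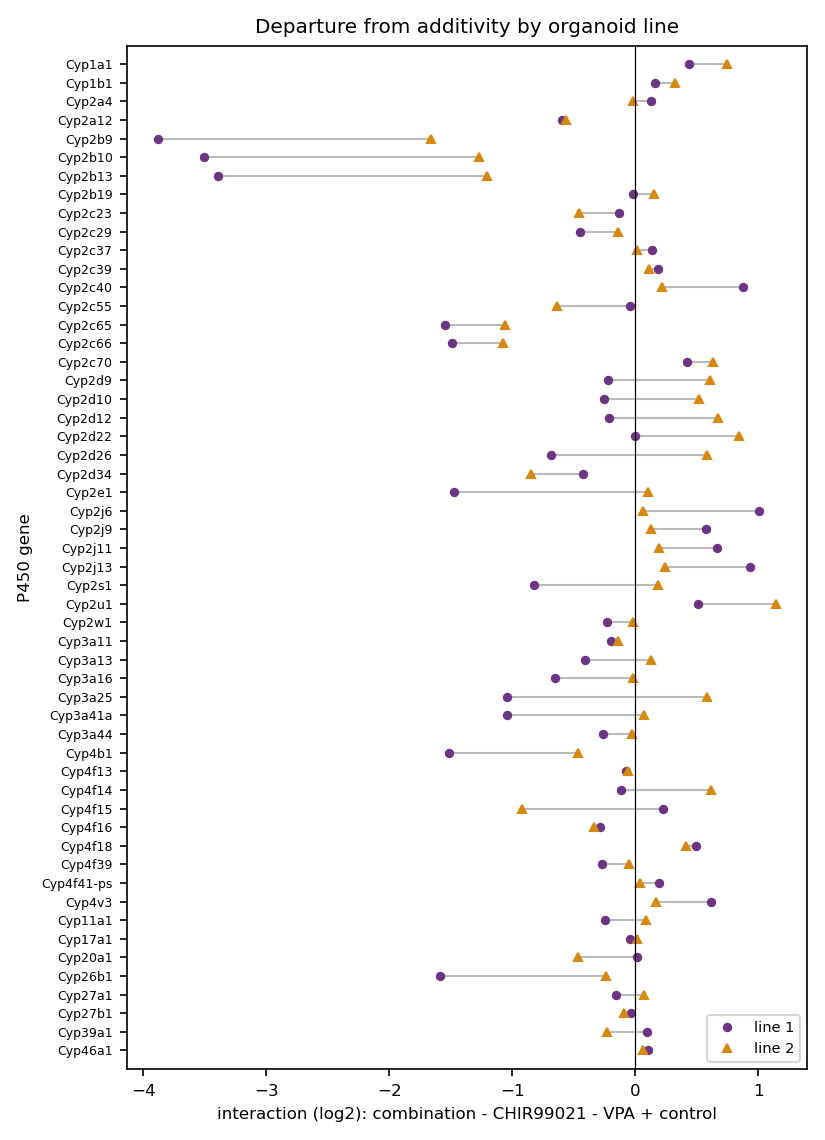
Interaction of CHIR99021 and VPA in log2 units (x axis) for the 54 P450 genes (y axis), with line 1 as circles and line 2 as triangles. Cyp2b9, Cyp2b10 and Cyp2b13 lie furthest left in both lines, at -1.21 to -3.88, and 0 genes passed the test.

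Regulators of P450 genes were also measured, from a list of 27 of which 25 were tested. With CHIR99021 2 of the 25 were called lower (1.01% of all genes were), with VPA 3 (4.27% of all genes) and with both compounds 8 (7.09% of all genes). None was called higher, and the medians were -0.22, -0.16 and -0.24. Nr1i3, the CAR receptor that drives Cyp2b10 in liver, fell by 1.35 with CHIR99021 (SE 0.11, adjusted p = 0.0135), fell by 0.92 with VPA (adjusted p = 0.0061) and fell by 2.08 with both (adjusted p = 0.000353). Its line values with both compounds were -2.07 and -2.10. Rxra, the partner of CAR and PXR, fell by 0.51 with VPA (adjusted p = 0.0424) and fell by 1.16 with both (adjusted p = 0.00218). Nr1h3, the oxysterol receptor LXR alpha, fell by 1.13 with VPA (adjusted p = 0.026) and fell by 1.66 with both (adjusted p = 0.00539). Hnf4g, an intestinal nuclear receptor, fell by 1.1 with CHIR99021 (adjusted p = 0.0448) and fell by 1.36 with both (adjusted p = 0.0042).

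Nr0b2, Rxrb, Cebpb and Nr3c1 (the glucocorticoid receptor) fell with both compounds, at differences of -0.36, -0.42, -0.87 and -0.78 (adjusted p = 0.0302, 0.0406, 0.0374 and 0.0478). Nr1i2, the PXR receptor, differed from control by -0.05, -0.01 and -0.05 with CHIR99021, VPA and both, Ahr by -0.22, 0.32 and -0.02, Hnf4a by -0.19, -0.30 and -0.25, and Nr1h4 (FXR) by -0.41, 0.60 and -0.20, none past the threshold. Whether the regulators' levels bear on the P450 values was not tested.

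Electron donors and haem enzymes changed in both directions, from a list of 25 of which 23 were tested. With CHIR99021 0 rose and 2 fell, where 1.12% of all genes were called (0.114% higher and 1.01% lower). With VPA 3 rose and 1 fell, and with both compounds 3 rose and 2 fell, where 10.8% and 15.5% of all genes were called. The VPA and combination counts thus say little about the list, and the CHIR99021 count rests on 2 genes. The medians were -0.12, 0.26 and 0.07. Por, the reductase that feeds electrons to microsomal P450s, rose by 0.82 ± 0.20 with VPA (SE, adjusted p = 0.0465) and differed by -0.41 with CHIR99021 and 0.03 with both. Alas1, which makes the first haem precursor and is limiting for haem in liver, fell by 0.76 with VPA (adjusted p = 0.00564) and fell by 0.75 with both (adjusted p = 0.00371). Cyb5r3, the cytochrome b5 reductase, fell by 1.04 with CHIR99021 (adjusted p = 0.0214) and fell by 0.70 with both (adjusted p = 0.0114), and Cyb5b fell by 0.62 with CHIR99021 (adjusted p = 0.0467).

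Further down the haem pathway, Urod rose by 0.66 with VPA (adjusted p = 0.0289) and Cpox by 0.86 with both (adjusted p = 0.0158). Blvrb, a biliverdin reductase of haem breakdown, rose by 1.36 with VPA (adjusted p = 0.0141) and by 1.29 with both (adjusted p = 0.0104), and Cyb5r1 rose by 0.71 with both (adjusted p = 0.00946). Hmox1, the inducible haem oxygenase, gave 0.48, 0.65 and 1.09 with CHIR99021, VPA and both, none past the threshold.

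**Figure D5:**
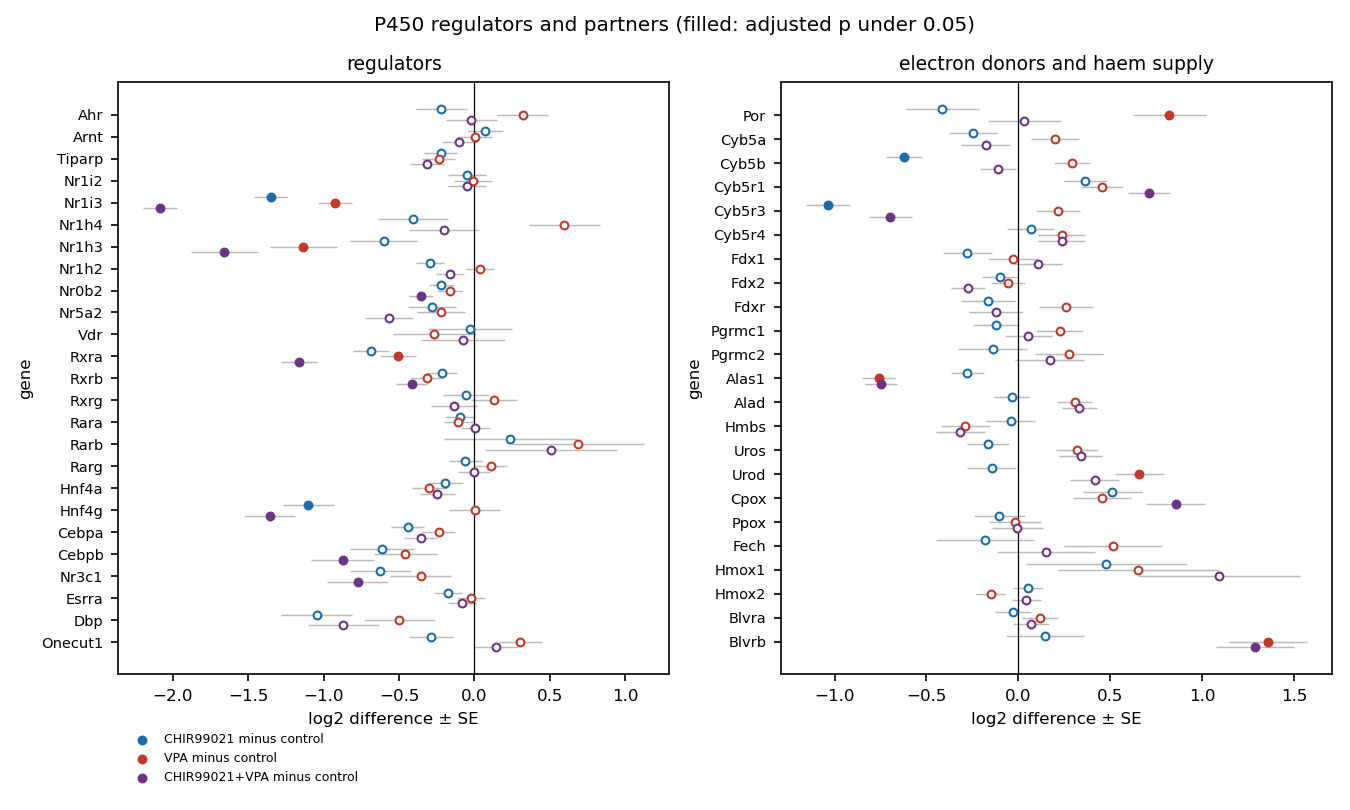
Log2 difference from control with its SE (x axis) for P450 regulators (left) and for electron donors and haem enzymes (right), by gene (y axis), with CHIR99021 in blue, VPA in red and both in purple; filled points have an adjusted p under 0.05. Nr1i3 lies lowest of the regulators with CHIR99021 and with both, and Blvrb is the highest of the right panel with VPA and with both.

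Markers of other cell types were read in the same way. Of 3 mesenchymal markers tested, Col1a1, a fibroblast collagen, rose by 0.79 with VPA (adjusted p = 0.0217) and by 1.01 with both (adjusted p = 0.0067), while Col1a2 and Pdgfra passed no test and Dcn was at background on all arrays. The summed Cy5 level of the 5 mesenchymal genes was 395 to 419 on CHIR99021 arrays, 483 to 525 on VPA arrays and 516 to 545 on combination arrays, against 397 to 423 in control organoids. None of 4 leukocyte markers passed a test against control. The summed Cy5 level of 3 hepatocyte markers was 252 to 264 on CHIR99021 arrays, 212 to 241 on VPA arrays and 221 to 249 on combination arrays, against 245 to 312 in control organoids, with Ahsg at background on all arrays. Of 3 endothelial markers, Pecam1 and Cdh5 were at background on all arrays. The stem cell list (5 genes) had no call in any comparison with control and medians of 0.38, 0.00 and 0.33 with CHIR99021, VPA and both, and the 5 goblet markers all fell with VPA and with both (medians -1.28 and -2.65). Of 4 Paneth markers, 1 fell with VPA and 2 with both (medians -0.57 and -1.55). With CHIR99021 3 of the 4 were above 0 and 1 below (median 0.7), and 0 passed the test. Of 3 enteroendocrine markers, Chgb fell by 3.08 with VPA (adjusted p = 0.00549) and fell by 4.45 with both (adjusted p = 0.00124), and of 3 tuft markers Trpm5 fell by 1.63 with both (adjusted p = 0.0351). The part of these cell types in the P450 values was not tested.

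Of the 54 members, 46 were well above background on both arrays of all 4 groups. The filter left out 20 P450 genes, of which 10 were above background on no array: Cyp11b2, Cyp19a1, Cyp1a2, Cyp2a5, Cyp2ab1, Cyp2c38, Cyp2d13, Cyp7a1, Cyp7b1 and Cyp8b1. They include Cyp7a1, the rate-limiting enzyme of bile acid synthesis in liver, Cyp8b1, which makes cholic acid, and Cyp19a1, the aromatase. The other 10 (Cyp21a1, Cyp24a1, Cyp26a1, Cyp2a22, Cyp2b23, Cyp2c54, Cyp2f2, Cyp2g1, Cyp2j5 and Cyp2r1) were above background on some arrays but never on both of a group. Just inside the filter, Cyp11a1 was above background on both combination arrays, on 0 CHIR99021 arrays and on 1 array each of VPA and control, and just outside it Cyp2c54 was above background on 1 VPA and 1 combination array.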

How the data were processed

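RNA of the 8 organoid samples was hybridised to two-colour Agilent whole mouse genome arrays, with the sample in Cy5, control RNA of the same line in Cy3 and no dye swap, per the labels. The deposited intensity values are median spot and local background brightness that, per the file headers, Feature Extraction 10.5.1.1 read with no background subtracted. The deposited log10 ratio is the software's background-subtracted, dye-normalised Cy5 over Cy3, per the file headers. The authors' series table holds log2 values that equalled that ratio within 5e-10 for 19228 spots, so its scale, direction and lack of further centring were settled, with column medians of 0.017 and 0.036 (CHIR99021), -0.028 and -0.024 (VPA), -0.0080 and -0.0027 (both) and 0.0039 and 0.0057 (control). The deposited flag columns, each 0 or 1, gave whether a spot was well above background, saturated or an outlier.

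Of 45018 spots per array, 1639 were controls and stayed out. Background was corrected with limma 3.58.1 in R 4.3.3 (normexp, offset 50, fitted without spots marked as outliers), and ratios were normalised by loess within arrays. On the CHIR99021 array of line 1, the noise SD of the model was 192 (Cy5) and 905 (Cy3) when all spots were fitted, against 1.14 and 1.02 without the marked ones, so both fits are given. Of 41174 probes, 27479 matched a symbol by RefSeq accession (GRCm38.p6 names), and 19262 genes were tested after 79 with a missing value were dropped. The rule for genes given array by array was a call in at least 1 of 6 contrasts or a place among the 5 largest rises or falls against control, and partner genes were named if called or on a short list of key genes. The 54 members, the gene lists and the tests were chosen with earlier results of these data known.

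The 4 groups were fitted together (lmFit and eBayes, 4 residual and 2.68 prior degrees of freedom) with Benjamini-Hochberg adjustment at 0.05. Per the labels, replicate numbers stand for organoid lines. Departures of same-line arrays from their group means were correlated, from weakly to strongly (r across genes 0.122 to 0.755 over 6 pairs of groups). A fit with the line as a block was therefore among the alternatives. The others were leaving out each array, other background and normalisation settings, no filter on dim probes and the mean of a gene's probes. Other variance settings, fits of only the groups compared, Cy5 alone and treated ratios against 0 were run too. Folds for dim genes came from the Cy5 channel after loess and normalisation of average intensity between arrays (Aquantile). The number of arrays limits the precision.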

Additional observations from a re-analysis of the deposited data

Results flagged for a closer look

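For 3 P450 genes that the filter left out, treated arrays were well above background in Cy5 where 0 of 2 control arrays were. Cyp2c54, an epoxygenase of the Cyp2c cluster, was above background on 2 of 6 treated arrays, 1 with VPA and 1 with both compounds. Cyp24a1, which inactivates vitamin D, was above background on 1 of 6 treated arrays, with VPA, and so was Cyp2f2, a lung P450 that activates naphthalene, on 1 of 6. None of the 3 reached both arrays of a group, so no fold change was tested.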

How the results depend on the processing

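All 53 main calls over the 6 contrasts kept their direction in every setting run. With the line as a replicate block all 53 were kept, and the counts of P450 calls came to 14 for CHIR99021, 39 for the combination and 16 for the combination against CHIR99021, beside 6, 23 and 7. The range without 1 array was 0 to 9 for CHIR99021, 0 to 12 for VPA, 5 to 27 for the combination, 0 to 12 for the combination against CHIR99021 and 0 to 7 against VPA. Fitting normexp on all spots gave 0 for CHIR99021, 5 for VPA and 1 for the combination against VPA, and Agilent's log ratio gave 2 for CHIR99021 and 3 for the combination against VPA. Variance trend with robust fitting gave 1 for CHIR99021, 5 for VPA and 4 for the combination against CHIR99021, where median centring also gave 4. Fitting only the groups compared gave 21 for CHIR99021, 13 for VPA, 0 (13 unadjusted) for the combination against CHIR99021 and 0 (21 unadjusted) against VPA. The Cy5 channel alone gave 0 for CHIR99021 (21 unadjusted), 2 for VPA, 11 for the combination, 0 against CHIR99021 (12 unadjusted) and 0 against VPA (22 unadjusted). Treated ratios against 0 gave 22, 19 and 37 for CHIR99021, VPA and the combination. The filter on dim probes and the choice of probe moved no count by over 1.5 times, and the interaction gave 0 P450 calls in limma under each of the 16 settings run for it, which leave out ratios against 0 and fits of the compared groups, with 3 to 12 genes at an unadjusted p under 0.05.

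Of the uncalled CHIR99021 values, Cyp26b1 ranged from -0.044 to 0.724 without 1 array and was -0.106 with normexp on all spots, and Cyp1a1 ranged from -0.006 to 0.627. Fits on fewer arrays have fewer degrees of freedom, and a lone array is assumed to vary like the other groups. The cause of the other changes was not tested. Levels of genes near background are uncertain, and 2 lines limit every comparison.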
